A study of Homo sapiens with 28 samples.

Results

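The genes described here encode the subunits of 2 partner families: the integrins, which are the main receptors that tie a cell to its extracellular matrix, and the laminins, the matrix proteins that build basement membranes. They were chosen by symbol, as every row of the count table named as an integrin alpha or beta subunit or as a laminin alpha, beta or gamma chain. The rule matched 38 of 60286 genes, of which 26 encode integrin subunits and 12 encode laminin chains. A mean of 10 or more reads over the 28 libraries was taken as measured; 28 of the 38 reached it (18 integrin subunits and 10 laminin chains), as did 14800 of all 60286 genes.

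The study sequenced RNA from HT-1080 cells, an established human fibrosarcoma line labelled as wild type, with 4 independent replicates in each of 7 groups. Cells were kept overnight with RSL3 (10 nM), LA (80 µM), CLA18:2 (80 µM), CLA18:3 (5 µM), RSL3 together with LA at those doses, RSL3 together with CLA18:2 at those doses, or the DMSO vehicle. Every group is the same unmodified line, so the values describe 1 tumour line in culture. RSL3 blocks GPX4, the enzyme that reduces lipid hydroperoxides, and is used to set off ferroptosis, a form of cell death driven by lipid peroxidation. LA is linoleic acid, whose double bonds are separated by a methylene group. CLA18:2 and CLA18:3 are conjugated fatty acids, whose double bonds alternate with single bonds, and the labels do not give their isomers. The fatty acid doses are those of the study's design text; the sample labels write mM.

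An integrin is 1 alpha and 1 beta subunit side by side in the membrane, and the pairing sets the ligand. The beta1 subunit, encoded by ITGB1, joins most alpha subunits: with alpha1, alpha2, alpha10 or alpha11 it binds collagen, with alpha3, alpha6 or alpha7 it binds laminin, and with alpha5 or alphaV it binds the RGD motif of fibronectin and vitronectin. A laminin is a coiled trimer of an alpha, a beta and a gamma chain, and a trimer needs an alpha chain to leave the cell. Fibroblast-like tumour cells use these receptors to spread, migrate and invade.

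Library totals ran between 16226270 and 24286824 reads counted in genes. Expression is given as CPM, the reads of a gene scaled to its library's total, with a TMM factor that evens out composition between libraries, and as CPM per kb of exon where genes are compared with each other. The spread between replicates over all genes was uneven: the biological coefficient of variation, the spread beyond counting error, was 19.9% with CLA18:3 and 15.1% with RSL3+CLA18:2, but 4.52% with DMSO. Genes with at least 1 read numbered 18812 to 20653 in CLA18:3 libraries, 19212 to 21462 in RSL3+CLA18:2 libraries and 21552 to 22801 in CLA18:2 libraries, against 23082 to 23636 in DMSO libraries. Mitochondrial mRNA took 0.263 to 1.68% of reads in RSL3+CLA18:2, 0.312 to 1.48% in CLA18:2, 0.356 to 1.64% in CLA18:3, 0.451 to 1.44% in LA, 0.548 to 1.498% in RSL3 and 1.46 to 1.93% in RSL3+LA libraries, against 1.26 to 1.49% in DMSO libraries. Of 10 mesenchymal markers, 8 were measured, VIM and FN1 among them. Of 12 epithelial markers 4 were measured (KRT8, KRT18, KRT14 and CLDN4) and OVOL1 was at 0. Their summed level was 553 to 616 CPM in CLA18:2 libraries and 594 to 673 CPM in RSL3+CLA18:2 libraries, against 837 to 902 CPM in DMSO libraries. It was also below every DMSO library with LA (681 to 734 CPM), RSL3+LA (609.9 to 762 CPM) and CLA18:3 (734 to 788 CPM), and reached 814 to 892 CPM with RSL3. None of 12 blood cell markers was measured, and they summed to at most 1.03 CPM in any library; of 6 endothelial markers, 1 (TEK) was measured. The part of these measures in the integrin and laminin results was not tested.

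Among integrins, HT-1080 cells under DMSO carried chiefly beta1 and the alpha subunits that join it. In DMSO libraries ITGB1 averaged 313 ± 3.82 CPM per kb (SD, n = 4), ahead of ITGA3 at 136 ± 4.41, ITGA5 at 107 ± 2.04 and ITGB5 at 84.6 ± 2.20 CPM per kb. ITGA6 at 62.8, ITGA2 at 30.7 and ITGAV at 30.2 CPM per kb came next; the last 2 did not differ beyond their spread. The other 11 measured integrin subunits were each below 10 CPM per kb. Those usually found on blood cells were low: ITGAE (alphaE) stood at 3.23, ITGB2 (beta2) at 1.11 and ITGAX (alphaX) at 0.0662 CPM per kb.

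Among laminins, the beta chains far outweighed the alpha chains. In DMSO libraries the beta chain genes summed to 271 ± 2.68 CPM per kb, against 6.34 ± 0.300 CPM per kb for the alpha chain genes (SD, n = 4). LAMB3, whose chain joins alpha3 in the laminin of skin and other epithelia, stood at 212 CPM per kb, while LAMA3 itself stood at 0.233 CPM per kb. LAMA4 (2.60 CPM per kb), the alpha chain of vessel walls and other mesenchymal tissue, and LAMA5 (2.51 CPM per kb), the most widespread alpha chain of adult tissue, did not differ beyond their spread.

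The 10 members below a mean of 10 reads were ITGA2B, ITGA8, ITGA9, ITGAD, ITGAL, ITGAM, ITGB7, ITGB8, LAMB4 and LAMC3. Their mean counts lay between 0 and 5.50 reads. ITGA8 had no read in any library; a count of 0 allows up to 3 reads, or 0.124 to 0.185 CPM depending on the library, by counting error alone. ITGA2B was the only one of the 10 to enter the test across genes, so that 29 members were tested.

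**Figure D1:**
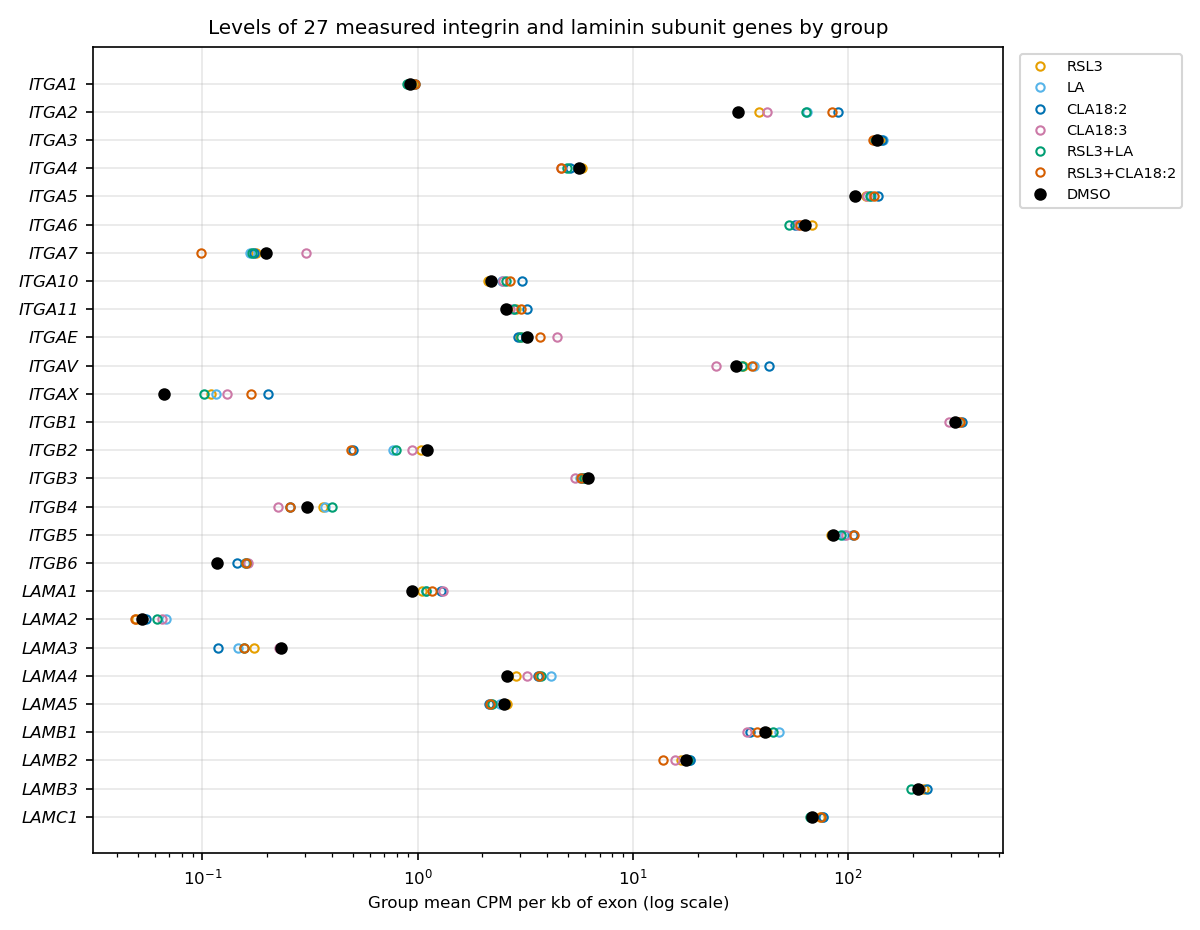
Level of 27 of the 28 measured integrin and laminin subunit genes, as the group mean of 4 libraries in CPM per kb of exon on a log axis, with RSL3, the fatty acids and their combinations as open circles and DMSO as filled black circles. The group means span from 0.0484 CPM per kb (LAMA2 in RSL3+CLA18:2) to 337 CPM per kb (ITGB1 in CLA18:2), and for most genes the 7 groups lie close together, with ITGA2 the most spread of the abundant ones.

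Members were called with every fatty acid, mostly at modest fold changes, and no member was called with RSL3 alone. The most members were called with CLA18:2, which also had the most calls over all genes. A gene is called where its p-value from edgeR's quasi-likelihood test, adjusted over all 16325 tested genes by Benjamini and Hochberg's method, is below 0.05. With CLA18:2, 12 of the 29 tested members were called higher than with DMSO and 4 lower, beside 20.1% of all genes called higher and 18.6% called lower. With RSL3+CLA18:2, 9 were higher and 6 lower, beside 18.6% and 16.6% of all genes; scaled by library totals alone, 6 were higher and 8 lower, beside 16.1% and 19.8%. With CLA18:3, at its lower dose, 6 were higher and 5 lower, beside 19.1% and 16.7% of all genes; scaled by library totals alone, 6 were higher and 9 lower, beside 14.4% and 23.2%. With LA, 6 were higher and 1 lower, beside 4.91% and 3.41% of all genes, and with RSL3+LA 4 were higher and 2 lower, beside 5.43% and 4.81%. With RSL3 alone edgeR called 0 members, beside 0.202% of all genes; 5 members had an unadjusted p below 0.05, DESeq2 called 1 (ITGA5, adjusted p = 0.0175) and limma voom 0. Read against these shares, calls in the higher direction were more frequent among the members than among all genes with LA, CLA18:2, RSL3+LA and RSL3+CLA18:2. With RSL3+CLA18:2 the 2 shares were closer under library totals. With CLA18:3 calls in the higher direction were near the share of all genes under TMM scaling. Under library totals the share of all genes was lower (14.4%) at the same 6 members, so the gap was wider. All tested genes were not matched to the members by read count, and no test was made of these differences.

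In all, 23 of the 29 tested members were called in at least 1 of the 6 comparisons with DMSO, and 7 of them at a fold change of 1.5 or more. Over all tested genes these shares were 58.2% and 20.5%, the second being near 7 of 29. The 7 were ITGA2, ITGA2B, ITGA7, ITGAX, ITGB2, LAMA3 and LAMA4. ITGA2B was not measured. Its call, and those of ITGA7 and LAMA3 at that fold change, were each lost without certain single libraries. The 6 called in none were ITGA1, ITGA3, ITGB4, ITGB6, LAMA2 and LAMA5. The median log2 fold change of the 29 members with CLA18:2 was 0.07, beside -0.02 over all tested genes. The 6 comparisons share the 4 DMSO libraries, so they are not independent of each other. In RNA from whole cultures, fewer cells that express a gene and less of its RNA per cell cannot be told apart.

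**Figure D2:**
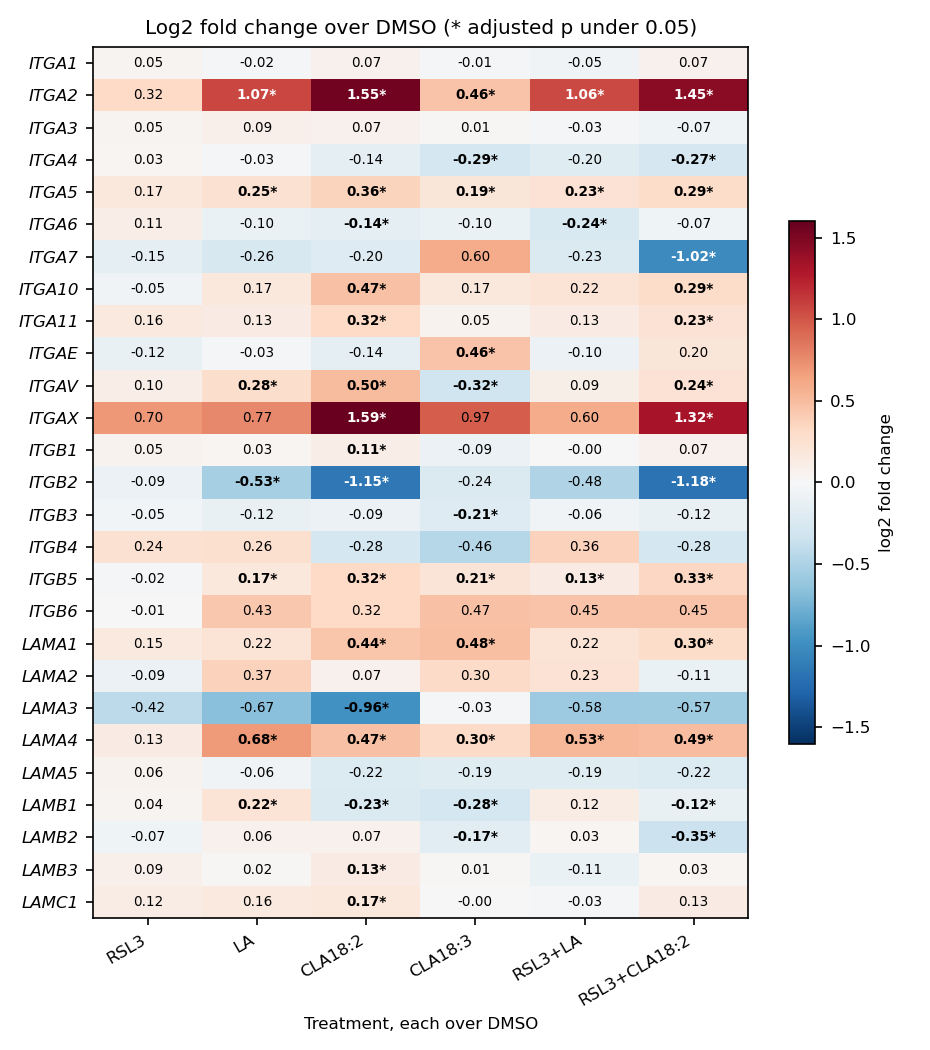
Log2 fold change over DMSO of 27 of the 28 measured members (rows) for RSL3, the 3 fatty acids and the 2 combinations with RSL3 (columns), with red for higher and blue for lower than DMSO and an asterisk where the adjusted p is below 0.05. ITGA2 is red in all 6 columns and called in 5, ITGB2 is blue in all 6 and called in 3, and LAMB1 is called higher with LA but lower with CLA18:2, CLA18:3 and RSL3+CLA18:2.

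ITGA2, the collagen-binding alpha2 subunit, responded more than any other abundant member. It stood at 864, 632, 722 and 615 CPM in the 4 CLA18:2 libraries and at 643, 637, 631 and 736 CPM in the 4 RSL3+CLA18:2 libraries, against 239.9, 244, 225 and 262 CPM in the 4 DMSO libraries. Its level was 501, 464, 528 and 539 CPM in LA libraries, 551, 562, 469 and 443 CPM in RSL3+LA libraries, 340.5, 335, 351 and 307 CPM in CLA18:3 libraries and 272, 284, 299 and 358 CPM in RSL3 libraries. Every treated library, RSL3 alone included, lay above every DMSO library. ITGA2 rose 2.92-fold with CLA18:2 (log2 fold change 1.55 ± 0.09, SE; adjusted p = 3.37e-16), 2.09-fold with LA (adjusted p = 7.51e-11) and 1.37-fold with CLA18:3 (adjusted p = 8.38e-05). It rose 2.73-fold with RSL3+CLA18:2 and 2.09-fold with RSL3+LA (adjusted p = 2.49e-15 and 5.43e-11). With RSL3 alone its log2 fold change was 0.32 ± 0.09, with an adjusted p of 0.174, so it was not called; without the filter on low counts it was, at a log2 fold change of 0.31 ± 0.05 (adjusted p = 4.38e-06). The 5 calls held when any 1 library was left out and under every other alternative tried.

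The gene spans chr5:52989326-53094779 (GENCODE 29, GRCh38). The 250 bases before its annotated RefSeq start (GRCh38.p14, chr5:52989102-52989351, plus strand) are shown because ITGA2 carries the strongest response among the abundant members. Capitals mark the GC box letters GGGCGG, searched on both strands, which occur 4 times in this window; they first occur 119 bases before the start.
ITGA2: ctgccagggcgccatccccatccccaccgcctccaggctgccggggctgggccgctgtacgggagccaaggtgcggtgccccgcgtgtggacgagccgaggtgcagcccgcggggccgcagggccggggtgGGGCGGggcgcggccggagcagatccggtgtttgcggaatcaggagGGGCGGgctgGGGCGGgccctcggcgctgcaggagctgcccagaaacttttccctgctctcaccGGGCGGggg
The same letters were in 42.6% of 35116 promoter windows of that length, so their presence is common. No TGANTCA (the AP-1-type motif) and no TGACNNNGC (the core of the antioxidant response element) occurred in it. The first letters of those 2 motifs can fall on the same bases. A match of letters is a description and not a binding site.

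The other collagen receptors moved less. ITGA10 rose with CLA18:2 (log2 fold change 0.47 ± 0.10, adjusted p = 0.000231), to 19.2 ± 0.717 CPM in CLA18:2 libraries, against 13.9 ± 1.102 CPM in DMSO libraries (SD, n = 4 each). ITGA11 rose with CLA18:2 as well (log2 fold change 0.32 ± 0.08, adjusted p = 0.00206), to 34.9 ± 1.71 CPM against 27.96 ± 2.06 CPM in DMSO. Both were also called higher with RSL3+CLA18:2 (adjusted p = 0.0224 and 0.0264). Those 2 calls were lost when certain libraries were left out; here and below, leaving out any 1 of the libraries named was enough. ITGA10 lost its call without RSL3+CLA18:2 replicates 1 and 3 or DMSO replicates 1 and 3 (adjusted p up to 0.0906), and ITGA11 lost it without RSL3+CLA18:2 replicates 3 and 4 or DMSO replicates 1, 2 and 3 (up to 0.106). ITGA1 was not called in any comparison, with log2 fold changes between -0.05 and 0.07 against DMSO. PELO, a gene inside ITGA1 on the same strand that shares 475 exon bases with it, was called higher with CLA18:2 (log2 fold change 1.10 ± 0.06, adjusted p = 6.67e-17), and also with CLA18:3, RSL3+CLA18:2 and RSL3+LA (log2 fold change 0.20 to 1.16); how reads in the shared bases were assigned is not given in the sources used here.

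ITGA2 took a larger part of the RNA of the alpha subunits that can join beta1 in cells given the 18:2 acids. By CPM per kb, ITGA2 made up 18.5 ± 1.80% of that sum with CLA18:2 and 18.5 ± 0.633% with RSL3+CLA18:2, but 8.10 ± 0.438% with DMSO (SD, n = 4 each). The lowest CLA18:2 library, at 16.8%, lay above the highest DMSO library, at 8.65%. Its share was 14.5 ± 0.837% with LA, 15.2 ± 1.45% with RSL3+LA, 10.6 ± 0.665% with CLA18:3 and 9.29 ± 0.772% with RSL3. The sum itself was 483 ± 29.5 CPM per kb in CLA18:2 libraries, against 379 ± 4.97 CPM per kb in DMSO libraries, and ITGB1 over that sum was 0.699 ± 0.00534 with CLA18:2, against 0.827 ± 0.0173 with DMSO. These are shares of RNA, and protein was not measured.

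**Figure D3:**
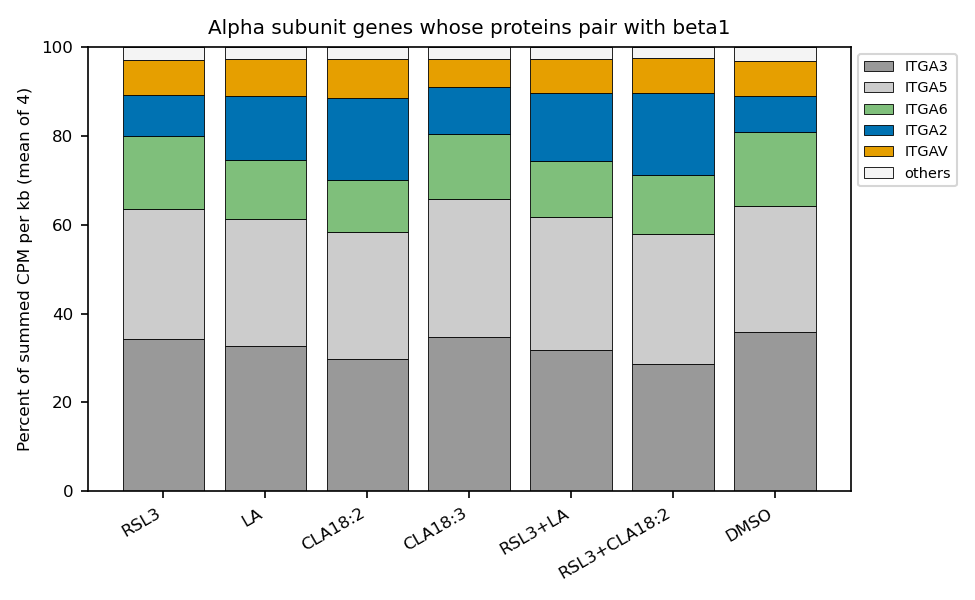
Share of each alpha subunit gene in the summed CPM per kb of the alpha subunits that pair with beta1, as the mean of 4 libraries in percent, for RSL3, the fatty acids, their combinations and, on the right, DMSO. The ITGA2 part (blue) is 18.5% with CLA18:2 and 14.5% with LA, against 8.10% with DMSO, and ITGA3 is the largest part in DMSO.

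Of the laminin-binding alpha subunits, ITGA3 was nearly flat, ITGA6 was slightly lower, and ITGA7, on few reads, varied more. ITGA3, the most abundant of them, had log2 fold changes between -0.07 and 0.09 against DMSO and was not called. ITGA6 fell with RSL3+LA (log2 fold change -0.24 ± 0.05, adjusted p = 0.000955) and with CLA18:2 (log2 fold change -0.14 ± 0.05, adjusted p = 0.0264). The call with CLA18:2 was lost without CLA18:2 replicates 2 and 4 or DMSO replicates 1, 2 and 4 (adjusted p up to 0.114). ITGA7, a laminin receptor subunit of muscle, had 7 to 50 reads a library over all groups and stood at 1.04, 0.485, 0.687 and 0.315 CPM in RSL3+CLA18:2 libraries, against 1.21, 1.06, 1.72 and 1.06 CPM in DMSO libraries. It was called lower there (log2 fold change -1.02 ± 0.35, adjusted p = 0.0221), and the groups did not overlap. The call was lost without RSL3+CLA18:2 replicates 2 and 4 or DMSO replicate 3, with adjusted p up to 0.0992. With CLA18:3, its log2 fold change was 0.60 ± 0.32 (adjusted p = 0.156), not called.

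ITGA5 and ITGB5, subunits of receptors for fibronectin and vitronectin, were both called higher in 5 of the 6 comparisons with DMSO, by small amounts. These 2 genes, with ITGAV, ITGAE, LAMB1 and LAMB2 below, are described library by library because of their values and not by the 1.5-fold rule. ITGA5 stood at 1129, 1008, 1024 and 1016 CPM in CLA18:2 libraries, 1003, 1011, 934 and 1029 CPM in RSL3+CLA18:2 libraries and 989, 940.1, 962 and 971 CPM in LA libraries, against 794, 818, 815 and 831 CPM in DMSO libraries, with no overlap between any of these groups and DMSO. It rose 1.28-fold with CLA18:2 (log2 fold change 0.36 ± 0.04, adjusted p = 7.33e-09), and by log2 0.25 with LA, 0.19 with CLA18:3, 0.23 with RSL3+LA and 0.29 with RSL3+CLA18:2. ITGB5 stood at 667, 674, 684 and 692 CPM in CLA18:2 libraries and 646, 628, 615 and 630.4 CPM in CLA18:3 libraries, against 546, 563, 544 and 529 CPM in DMSO libraries. It rose 1.245-fold with CLA18:2 (log2 fold change 0.32 ± 0.04, adjusted p = 8.2e-09) and 1.253-fold with RSL3+CLA18:2. Its smallest call, with RSL3+LA (log2 fold change 0.13, adjusted p = 0.0159), was lost without RSL3+LA replicates 1 and 4 or DMSO replicates 1 and 4 (adjusted p up to 0.086).

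ITGAV, the alphaV subunit that joins beta1, beta3, beta5, beta6 or beta8, was called in opposite directions with the 2 conjugated acids, which were given at different doses and not tested against each other. It stood at 394, 328, 341 and 341 CPM in CLA18:2 libraries, against 255, 236, 242 and 259.9 CPM in DMSO libraries (log2 fold change 0.50 ± 0.06, adjusted p = 4.51e-08). In CLA18:3 libraries it stood at 194, 199, 224 and 182 CPM, below every DMSO library (log2 fold change -0.32 ± 0.06, adjusted p = 0.000152). It was also called higher with LA (log2 fold change 0.28) and with RSL3+CLA18:2 (log2 fold change 0.24). Among its partners, ITGB3, the beta subunit of the vitronectin and platelet fibrinogen receptors, was called lower with CLA18:3 (log2 fold change -0.21 ± 0.08, adjusted p = 0.0302); that call was lost without CLA18:3 replicate 2 or DMSO replicate 3 (adjusted p up to 0.122). ITGB6 was measured at 4 to 22 reads a library and was not called. ITGA2B, the platelet partner of beta3, had 5, 0, 0 and 0 reads in RSL3+CLA18:2 libraries, against 9, 2, 12 and 11 reads in DMSO libraries. It was called lower there (adjusted p = 0.0427), on too few reads to give a fold change. The call was lost without RSL3+CLA18:2 replicates 2, 3 and 4 or DMSO replicates 1, 3 and 4 (adjusted p up to 0.122).

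ITGB1, the shared partner of most alpha subunits, stayed almost level. It stood at 2178, 1944, 2038 and 1954 CPM in CLA18:2 libraries, against 1909, 1857, 1873 and 1896 CPM in DMSO libraries. The rise was 1.08-fold (log2 fold change 0.11 ± 0.04, adjusted p = 0.0402), and its call was lost without CLA18:2 replicates 1 and 3 or DMSO replicates 2 and 3 (adjusted p up to 0.22). In the other 5 comparisons with DMSO the log2 fold change of ITGB1 lay between -0.09 and 0.07, and none was called. A processed copy of the gene, ITGB1P1, was counted at 109 CPM in DMSO libraries and was called higher with RSL3+CLA18:2 (log2 fold change 0.19 ± 0.07); how reads shared by the copies were assigned is not given in the sources used here.

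ITGA4, which with beta1 binds fibronectin and VCAM1, fell with CLA18:3 (log2 fold change -0.29 ± 0.07, adjusted p = 0.000987) and with RSL3+CLA18:2 (log2 fold change -0.27 ± 0.07, adjusted p = 0.0015). ITGB4, which joins alpha6 in the hemidesmosomes of epithelia, was measured at 13 to 65 reads a library and was not called.

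The subunits best known from blood cells were present at low levels and moved in different directions. ITGB2, the shared beta2 subunit of leukocyte integrins, stood at 3.53, 2.79, 3.00 and 4.27 CPM in CLA18:2 libraries and 2.82, 3.02, 4.72 and 2.70 CPM in RSL3+CLA18:2 libraries, against 7.99, 7.59, 7.05 and 7.48 CPM in DMSO libraries. Neither group overlapped DMSO. ITGB2 fell to 0.452 of its DMSO level with CLA18:2 (log2 fold change -1.15 ± 0.17, adjusted p = 1.02e-06) and to 0.443 with RSL3+CLA18:2 (log2 fold change -1.18 ± 0.17, adjusted p = 8.87e-07). With LA it stood at 6.15, 5.02, 4.88 and 4.77 CPM and was also called lower (log2 fold change -0.53 ± 0.16, adjusted p = 0.0341). The LA call was lost without LA replicates 2, 3 and 4 or DMSO replicates 1, 2 and 4 (adjusted p up to 0.113). The antisense gene ITGB2-AS1, which shares 303 exon bases with ITGB2, was called lower with CLA18:2 (log2 fold change -2.38 ± 0.34, adjusted p = 6.4e-07), with RSL3+CLA18:2 (log2 fold change -1.59 ± 0.32) and with LA (log2 fold change -1.69 ± 0.32). The strand setting of the counting is not given in the sources used here, so reads of the 2 genes in the shared bases cannot be told apart.

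ITGAX, a partner of beta2, stood at 0.955, 1.61, 1.41 and 1.75 CPM in CLA18:2 libraries and 1.27, 1.56, 0.641 and 1.31 CPM in RSL3+CLA18:2 libraries, against 0.368, 0.555, 0.559 and 0.391 CPM in DMSO libraries. It was called higher with CLA18:2 (log2 fold change 1.59 ± 0.46, adjusted p = 0.00513) and with RSL3+CLA18:2 (log2 fold change 1.32 ± 0.46, adjusted p = 0.0227), on 7 to 40 reads a library over all groups. The second call was lost without RSL3+CLA18:2 replicate 2 or DMSO replicates 1 and 4 (adjusted p up to 0.0679). ITGAE, which with beta7 binds E-cadherin, was called higher with CLA18:3 and in no other comparison with DMSO. It stood at 31.5, 27.7, 29.005 and 30.1 CPM in CLA18:3 libraries, against 21.7, 22.7, 20.9 and 20.9 CPM in DMSO libraries (log2 fold change 0.46 ± 0.09, adjusted p = 0.000147). Its beta7 partner gene ITGB7 had at most 2 reads in any library. HASPIN, an opposite-strand gene inside ITGAE that shares 427 exon bases with it, was called lower with CLA18:3 (log2 fold change -0.31 ± 0.10, adjusted p = 0.014). It was lower also with CLA18:2 (log2 fold change -0.70 ± 0.10) and with RSL3+CLA18:2 (-0.28 ± 0.10), groups in which ITGAE was not called.

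**Figure D4:**
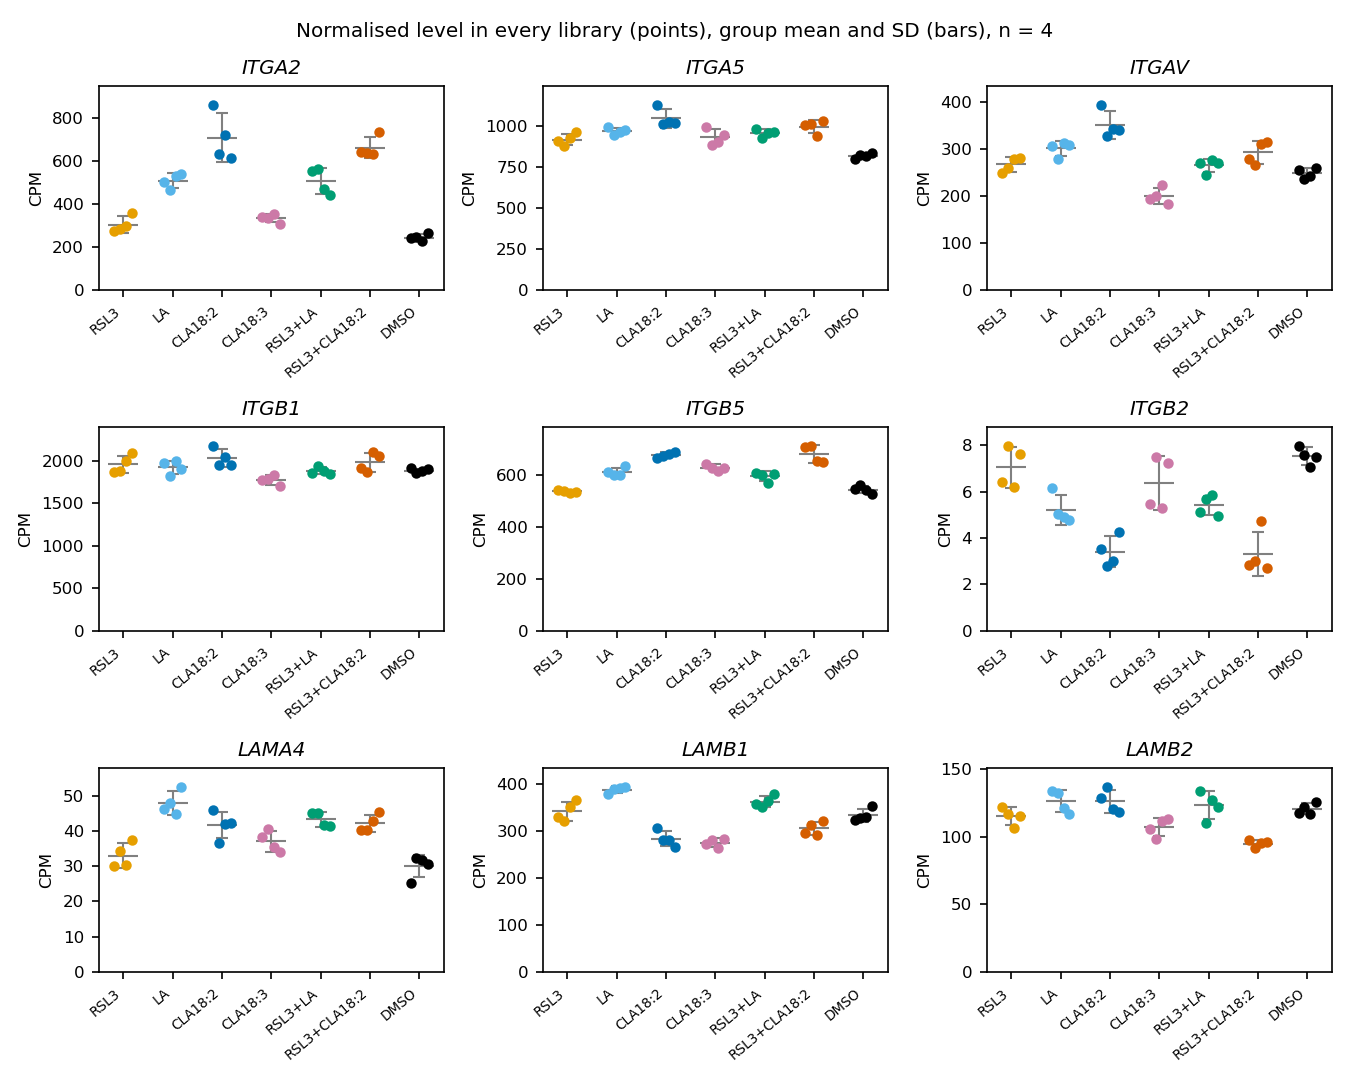
Level in CPM of 9 integrin and laminin subunit genes in every library (points), with the group mean and SD (bars, n = 4), for RSL3, the fatty acids, their combinations and, on the right, DMSO; each vertical axis starts at 0. ITGA2 lies at 615 CPM or more in every CLA18:2 library, against at most 262 CPM in DMSO libraries, ITGB1 is nearly level across groups, and ITGB2 is lowest with CLA18:2 and RSL3+CLA18:2.

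Of the laminin alpha chains, LAMA4 and LAMA1 were called higher and LAMA3 lower. LAMA4 stood at 46.5, 48.0, 45.0 and 52.8 CPM in LA libraries and 46.1, 36.8, 42.0 and 42.4 CPM in CLA18:2 libraries, against 25.4, 32.4, 31.8 and 30.8 CPM in DMSO libraries. Neither acid group overlapped DMSO. LAMA4 rose 1.597-fold with LA (log2 fold change 0.68 ± 0.08, adjusted p = 2.68e-07), 1.39-fold with CLA18:2 (log2 fold change 0.47 ± 0.08, adjusted p = 1.61e-05) and 1.23-fold with CLA18:3 (log2 fold change 0.30 ± 0.08, adjusted p = 0.004). It also rose with RSL3+LA (log2 fold change 0.53) and RSL3+CLA18:2 (log2 fold change 0.49), and the 5 calls held without any 1 library. LAMA1, an alpha chain of early development, rose with CLA18:3 (log2 fold change 0.48 ± 0.11, adjusted p = 0.000675) and CLA18:2 (log2 fold change 0.44 ± 0.11, adjusted p = 0.00135). It was called higher with RSL3+CLA18:2 too (adjusted p = 0.0322), which was lost without RSL3+CLA18:2 replicates 1 and 2 or DMSO replicates 1, 2 and 3 (up to 0.128). LAMA3 stood at 2.82, 1.47, 1.96 and 0.712 CPM in CLA18:2 libraries, against 2.47, 3.93, 2.97 and 4.30 CPM in DMSO libraries, and the groups overlapped. It was called lower (log2 fold change -0.96 ± 0.31, adjusted p = 0.012), and without CLA18:2 replicate 4, its lowest library, the adjusted p was 0.069. LAMA2, the alpha chain of muscle, had 5 to 22 reads a library and was not called, and neither was LAMA5. LAMA5 shares 244 exon bases with ADRM1, a gene of the opposite strand with a mean of 3517 reads, against 664 for LAMA5. How reads in those bases were assigned is not given in the sources used here.

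Of the beta chains, LAMB1 split by acid and LAMB2 was lower with CLA18:3 and with RSL3+CLA18:2. LAMB1 stood at 378, 389, 392 and 395 CPM in LA libraries, above every DMSO library at 323, 327, 331 and 353 CPM (log2 fold change 0.22 ± 0.05, adjusted p = 0.00101). It stood at 307, 281, 281 and 266 CPM in CLA18:2 libraries and 272, 281, 263 and 284 CPM in CLA18:3 libraries, below every DMSO library (log2 fold change -0.23 ± 0.05, adjusted p = 9.75e-05, and log2 fold change -0.28 ± 0.05, adjusted p = 1.06e-05). Its call with RSL3+CLA18:2 was small (log2 fold change -0.12, adjusted p = 0.0343) and was lost without RSL3+CLA18:2 replicates 1 and 3 or DMSO replicate 4 (adjusted p up to 0.132). LAMB2, a beta chain of nerve, muscle and kidney basement membranes, stood at 97.2, 91.5, 95.1 and 95.8 CPM in RSL3+CLA18:2 libraries and 106, 98.6, 111 and 113 CPM in CLA18:3 libraries, against 118, 122, 117 and 126 CPM in DMSO libraries. It fell with RSL3+CLA18:2 (log2 fold change -0.35 ± 0.06, adjusted p = 1.21e-05) and with CLA18:3 (log2 fold change -0.17 ± 0.06, adjusted p = 0.0213), the last call being lost without CLA18:3 replicate 2 (adjusted p = 0.0795). LAMB1 shares 70 exon bases with DLD, a gene of the opposite strand. LAMB3 rose 1.09-fold with CLA18:2 (log2 fold change 0.13 ± 0.04, adjusted p = 0.00686).

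Of the gamma chains, LAMC1, the chain of most laminins, stood at 693, 603, 671 and 615 CPM in CLA18:2 libraries, against 557, 562, 558 and 610.5 CPM in DMSO libraries, and the groups overlapped. It was called higher (log2 fold change 0.17 ± 0.06, adjusted p = 0.0129), and not without CLA18:2 replicate 1 (adjusted p = 0.0697).

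LAMA3 and LAMB3, whose chains belong to the same trimer, were thus called in opposite directions with CLA18:2. The ratio of LAMB3 to LAMA3 by CPM per kb was 2509 ± 1594 in CLA18:2 libraries, against 957 ± 251 in DMSO libraries (SD, n = 4 each), on 13 to 89 reads of LAMA3 a library over all groups. The groups overlapped, with the lowest CLA18:2 library at 1229 and the highest DMSO library at 1276. The highest CLA18:2 library, replicate 4, was at 4807 on 13 reads of LAMA3. Their promoters are shown for that reason, as the 250 bases before a RefSeq start (GRCh38.p14). The windows are chr18:23872770-23873019 on the plus strand for LAMA3 and chr1:209651375-209651624 on the minus strand for LAMB3. Each window lies inside the annotated span of its gene, so neither is upstream of the whole gene. Capitals mark the AP-1-type letters TGANTCA, which read the same way on both strands.
LAMA3: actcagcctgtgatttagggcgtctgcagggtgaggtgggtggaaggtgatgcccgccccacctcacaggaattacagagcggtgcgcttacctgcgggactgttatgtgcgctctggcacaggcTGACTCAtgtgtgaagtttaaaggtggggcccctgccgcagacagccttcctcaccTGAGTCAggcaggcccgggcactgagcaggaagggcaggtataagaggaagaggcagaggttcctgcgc
LAMB3: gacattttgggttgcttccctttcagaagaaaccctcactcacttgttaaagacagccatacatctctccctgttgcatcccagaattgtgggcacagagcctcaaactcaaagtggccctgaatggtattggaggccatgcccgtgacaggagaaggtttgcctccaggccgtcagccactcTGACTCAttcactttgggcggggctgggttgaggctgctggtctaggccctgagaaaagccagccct
Windows of 26 member genes were matched, 33 in all, and TGANTCA was in 2 of the 33, those of LAMA3 and LAMB3, beside 6.57% of 35116 windows of that length. Whether these letters bear on the level of either gene was not tested.

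CLA18:2 and LA, 18-carbon acids of matched dose that differ in whether the double bonds are conjugated, were compared directly, alone and with RSL3 (2 pairs). Alone, CLA18:2 gave higher levels than LA for 6 and lower levels for 2 of the 29 tested members, beside 15.6% and 14.6% of all genes. ITGA2 was 1.39-fold higher in CLA18:2 than in LA libraries (log2 fold change 0.48 ± 0.09, adjusted p = 3.98e-05), and LAMB1 was lower (log2 fold change -0.45 ± 0.05, adjusted p = 8.51e-10), as was ITGB2 (log2 fold change -0.61 ± 0.17, adjusted p = 0.00574). ITGAV was higher (log2 fold change 0.22 ± 0.06, adjusted p = 0.00589), though not without CLA18:2 replicate 1 (adjusted p = 0.0564). ITGB5 was higher by log2 0.15. ITGA5, ITGA10 and LAMB3 were higher by log2 0.11, 0.30 and 0.11, and each of the 3 calls was lost without LA replicate 4 or CLA18:2 replicate 1 (adjusted p up to 0.225, 0.0614 and 0.0985); ITGA5 lost it also without LA replicate 2, and LAMB3 without LA replicate 3. LAMA4 was not called between the acids, with a log2 difference of -0.20 (95% interval -0.37 to -0.04), and neither was ITGB1 (0.08, interval -0.01 to 0.16).

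With RSL3 present, CLA18:2 gave higher levels than LA for 7 and lower levels for 3 members, beside 14.1% and 12.0% of all genes; scaled by library totals alone, 3 were higher and 3 lower, beside 10.5% and 16.4%. ITGA2 was 1.31-fold higher (log2 fold change 0.39 ± 0.09, adjusted p = 0.000876), and ITGB5, ITGA6, ITGAE, LAMB3 and LAMC1 were higher by log2 0.14 to 0.30. ITGB2 (log2 fold change -0.70 ± 0.17, adjusted p = 0.00234), LAMB1 (log2 fold change -0.25 ± 0.05, adjusted p = 9.09e-05) and LAMB2 (log2 fold change -0.38 ± 0.06, adjusted p = 5.51e-06) were lower. The calls of ITGA6 (without RSL3+CLA18:2 replicate 4), ITGAE (without RSL3+LA replicate 4) and LAMC1 (without RSL3+LA replicates 2 and 3 or RSL3+CLA18:2 replicate 4) were lost, with adjusted p up to 0.0531, 0.06 and 0.112. That of LAMB3 held without any 1 library but was lost without the low-count filter and with library totals (adjusted p = 0.0896 and 0.0958); with library totals those of ITGA6, ITGAE and LAMC1 were lost too. CLA18:3 was given at 5 µM and is not set against the acids at 80 µM.

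When RSL3 was added to LA, edgeR called 0 of the 29 members, beside 0.049% of all genes, with 8 members at an unadjusted p below 0.05; DESeq2 and limma voom also called 0. When it was added to CLA18:2, 4 members were called, 1 higher and 3 lower, beside 6.65% and 5.24% of all genes; scaled by library totals alone, 1 was higher and 4 lower, beside 5.17% and 7.01%. LAMB2 fell to 0.751 of its CLA18:2 level (log2 fold change -0.41 ± 0.06, adjusted p = 7.54e-06), with 97.2, 91.5, 95.1 and 95.8 CPM in RSL3+CLA18:2 libraries, against 129, 137, 121 and 119 CPM in CLA18:2 libraries, without overlap. ITGAV (log2 fold change -0.26 ± 0.06, adjusted p = 0.00379) and ITGA3 (log2 fold change -0.14 ± 0.04, adjusted p = 0.0157) fell as well. ITGAE was higher (log2 fold change 0.34 ± 0.09, adjusted p = 0.0132), but not without CLA18:2 replicate 1 or RSL3+CLA18:2 replicate 2 (adjusted p up to 0.0867). HASPIN, which shares exon bases with ITGAE, was called higher in the same comparison (log2 fold change 0.43 ± 0.10, adjusted p = 0.00467). The strand setting of the counting is not given, so reads of the shared bases cannot be told apart.

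Whether the response to RSL3 itself differed with CLA18:2 present was tested as an interaction, the RSL3 response with the acid minus that without it. It was called for 6 members, beside 3.55% of all genes. LAMB2 had a difference of -0.34 ± 0.08 on the log2 scale (adjusted p = 0.013), ITGAV of -0.37 ± 0.09 (adjusted p = 0.0138) and ITGA5 of -0.24 ± 0.06 (adjusted p = 0.015), and these 3 calls held without any 1 library. Those of ITGA2 (-0.42), ITGAE (0.46) and LAMB3 (-0.19) had adjusted p between 0.0426 and 0.049 and were lost without any 1 of 11, 11 and 14 libraries. For HASPIN this difference was 0.42 ± 0.14 (adjusted p = 0.116), beside that of ITGAE. The interaction with LA called 0 members in edgeR's test, beside 0.0245% of all genes, with 11 members at an unadjusted p below 0.05 and 6 called by DESeq2.

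**Figure D5:**
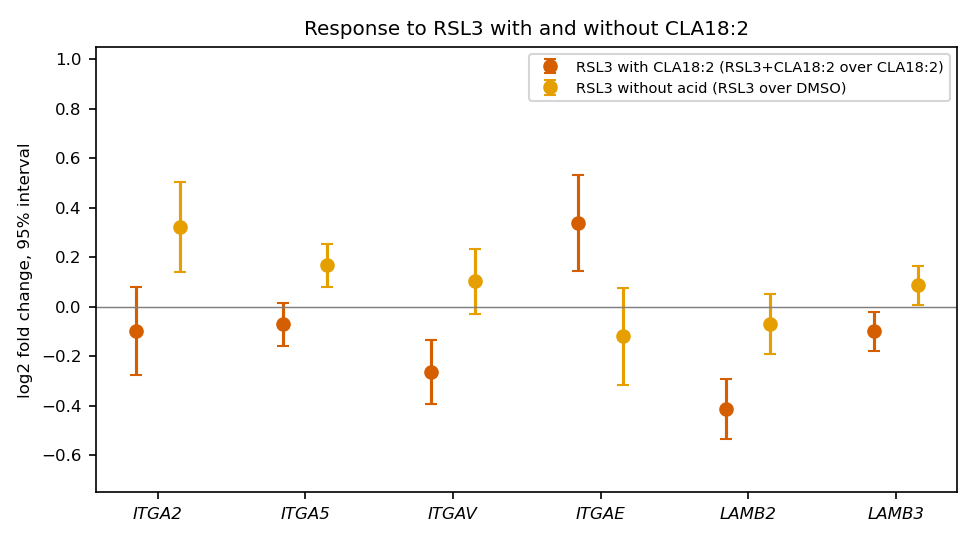
Log2 fold change to RSL3 of the 6 members with a called interaction, with CLA18:2 present (RSL3+CLA18:2 over CLA18:2, dark orange, left of each pair) and without acid (RSL3 over DMSO, light orange), with 95% intervals. LAMB2 is at -0.41 with CLA18:2, against -0.07 without acid, and ITGAE at 0.34, against -0.12.

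The genes around these receptors were read from 6 lists of pathway partners, given here by counts and by each list's median log2 fold change beside that of all tested genes. The shares of all tested genes called higher and lower were 4.91% and 3.41% with LA and 20.1% and 18.6% with CLA18:2. They were 19.1% and 16.7% with CLA18:3, 5.43% and 4.81% with RSL3+LA and 18.6% and 16.6% with RSL3+CLA18:2. With RSL3 alone, 0.202% of all genes were called in either direction. No list was tested against these shares. With RSL3 alone, across the 6 lists, edgeR called 1 integrin-associated membrane protein higher, PLAUR (the urokinase receptor; log2 fold change 0.24 ± 0.04), and 1 integrin ligand lower, COL1A1 (-0.39 ± 0.08).

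Of the adaptors and kinases of focal adhesions, which couple integrin tails to actin, 33 of 36 were tested. The called counts, higher and lower, were 3 and 8 with LA, 4 and 15 with CLA18:2, 3 and 15 with CLA18:3, 2 and 12 with RSL3+LA and 4 and 17 with RSL3+CLA18:2. Most calls were therefore in the lower direction, and the median with CLA18:2 was -0.12 against -0.02 for all genes. FERMT3 (kindlin-3, an integrin activator of blood cells) and PTK2 (focal adhesion kinase) rose with CLA18:2 by log2 1.20 ± 0.44 and 0.37 ± 0.05. LIMS2 (an adaptor of integrin-linked kinase) and TNS2 (tensin-2) changed by -1.55 ± 0.29 and -0.66 ± 0.08. FERMT3 was low, at 1.56 CPM with CLA18:2 against 0.682 CPM with DMSO (adjusted p = 0.0301 in edgeR's test). LIMS2 stood at 4.32 CPM with DMSO.

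Of the basement membrane partners of laminin, 15 of 20 were tested. The called counts, higher and lower, were 0 and 3 with LA, 1 and 4 with CLA18:2, 0 and 6 with CLA18:3, 0 and 4 with RSL3+LA and 1 and 7 with RSL3+CLA18:2. COL4A5, a collagen IV chain, rose with CLA18:2 by log2 0.64 ± 0.10, while AGRN (agrin, a laminin-binding proteoglycan) and SPARC (a collagen-binding matrix protein) changed by -0.69 ± 0.07 and -0.41 ± 0.04. The median with CLA18:2 was 0.01 against -0.02 for all genes.

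Of the integrin ligands other than laminins, 31 of 36 were tested. The called counts, higher and lower, were 8 and 4 with LA, 10 and 8 with CLA18:2, 7 and 9 with CLA18:3, 5 and 6 with RSL3+LA and 5 and 10 with RSL3+CLA18:2. SPP1 (osteopontin, a ligand of alphaV integrins) and ICAM1 (a ligand of beta2 integrins) rose with CLA18:2 by log2 2.36 ± 0.11 and 1.15 ± 0.34. THBS1 (thrombospondin-1) and COL1A1 (a chain of collagen I) changed by -2.02 ± 0.07 and -1.18 ± 0.08. The median was 0.05 against -0.02 for all genes.

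Of the integrin-associated membrane proteins, all 16 were tested. The called counts, higher and lower, were 2 and 1 with LA, 8 and 2 with CLA18:2, 12 and 1 with CLA18:3, 3 and 1 with RSL3+LA and 9 and 1 with RSL3+CLA18:2. GPNMB and TSPAN9 (a tetraspanin) rose with CLA18:2 by log2 0.97 ± 0.16 and 0.87 ± 0.08, while CAV1 (caveolin-1) and EMP2 changed by -0.91 ± 0.06 and -0.43 ± 0.07. The median with CLA18:2 was 0.14 against -0.02 for all genes, and with CLA18:3 it was 0.28 against 0.00.

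Of the laminin receptors that are not integrins, with partners of the hemidesmosome, all 14 were tested. The called counts, higher and lower, were 0 and 2 with LA, 2 and 4 with CLA18:2, 1 and 4 with CLA18:3, 0 and 2 with RSL3+LA and 3 and 3 with RSL3+CLA18:2. DST (dystonin) and SGCB (a sarcoglycan) rose with CLA18:2 by log2 0.66 ± 0.11 and 0.19 ± 0.06, while SDC2 (syndecan-2) and PLEC (plectin) changed by -0.78 ± 0.09 and -0.20 ± 0.05. The median with CLA18:2 was -0.06 against -0.02 for all genes.

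Of the genes of integrin traffic and turnover, 16 of 17 were tested. The called counts, higher and lower, were 2 and 1 with LA, 7 and 3 with CLA18:2, 6 and 3 with CLA18:3, 2 and 2 with RSL3+LA and 7 and 3 with RSL3+CLA18:2. DAB2 and NUMB, endocytic adaptors that bind integrin tails, rose with CLA18:2 by log2 0.98 ± 0.09 and 0.77 ± 0.06. RAB11FIP1 (a recycling effector) and CLIC3 changed by -1.01 ± 0.12 and -0.76 ± 0.08, and the median was 0.10 against -0.02 for all genes.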

How the data were processed

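RNA of HT-1080 cells was sequenced in 28 libraries (7 groups of 4 independent replicates). The deposited files hold raw read counts per gene symbol, and every value column was used. The submitters' processing notes name HISAT, SAMtools, featureCounts, DESeq2 and the build hg38, without versions; annotation and strand setting are not given in the sources used here. The total count per library ran from 16226270 to 24286824. The limits for a count of 0 cover counting error only.

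The counts were tested with edgeR 4.0.16 (quasi-likelihood, TMM, filterByExpr, 16325 of 60286 genes, holding 99.9% of counts), fitted over 28 libraries with 1 mean per group. P-values were adjusted by Benjamini and Hochberg's method at 0.05; SE is the log2 fold change over the root of F, and 95% intervals use 21 degrees of freedom. Exon lengths and positions come from GENCODE 29 (GRCh38). Promoter windows come from RefSeq (GRCh38.p14). The procedure was tested on simulated data.

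Alternatives were no low-count filter, a mean count of 10, RLE size factors, library totals, DESeq2 1.42.0, limma voom 3.58.1, only the groups compared, a replicate block and leaving out each library. Values library by library are given for members called at 1.5-fold or more against DMSO and for ITGB1 and LAMC1. Those of ITGA5, ITGB5, ITGAV, ITGAE, LAMB1 and LAMB2 are also given, chosen because of their values and not by that rule. The values by library cover the groups discussed, and all 7 groups only for ITGA2. From each pathway list the called genes with the largest fold each way are named. The values of 1 member are not reported here, though it stays in the counts. The members, gene lists and tests were chosen with earlier results of these data known.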

Additional observations from a re-analysis of the deposited data

Results flagged for a closer look

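Among the 15 genes described library by library, 105 gene and group combinations were examined for a library far from its 3 fellows by Dixon's gap test. There were 7; chance flags about 1 in 20 groups of 4. In RSL3+CLA18:2, ITGA2 stood at 736 CPM in replicate 4 (others 631 to 643), ITGB2 at 4.72 CPM in replicate 3 (others 2.70 to 3.02) and LAMA3 at 3.07 CPM in replicate 2 (others 2.01 to 2.07). ITGA2B stood at 0.288 CPM in RSL3+CLA18:2 replicate 1 (others 0) and at 0.510 CPM in RSL3 replicate 2 (others 0.262 to 0.303), each on a handful of reads. ITGA5 stood at 1129 CPM in CLA18:2 replicate 1 (others 1008 to 1024), and LAMC1 at 610.5 CPM in DMSO replicate 4 (others 557 to 562). The calls of ITGA2 and ITGB2 with RSL3+CLA18:2, and of ITGA5 with CLA18:2, held without those libraries.

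For 6 members the log2 response to RSL3 differed by edgeR's interaction test between cells with CLA18:2 and cells without it: ITGA2 by -0.42, ITGA5 by -0.24, ITGAE by 0.46, ITGAV by -0.37, LAMB2 by -0.34 and LAMB3 by -0.19. For ITGA2 the call was lost without RSL3 replicates 2, 3 and 4, CLA18:2 replicates 1 and 3, RSL3+CLA18:2 replicates 1, 2 and 3 or DMSO replicates 1, 2 and 3, with adjusted p up to 0.16. For ITGAE it was lost without RSL3 replicates 3 and 4, CLA18:2 replicates 1 and 4, RSL3+CLA18:2 replicates 1, 2 and 3 or DMSO replicates 1, 2, 3 and 4 (up to 0.134). For LAMB3 it was lost without RSL3 replicates 1, 2 and 4, CLA18:2 replicates 1, 2, 3 and 4, RSL3+CLA18:2 replicates 1, 2 and 3 or DMSO replicates 1, 2, 3 and 4 (up to 0.106).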

How the results depend on the processing

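Of 83 calls of a member over all comparisons, 57 held without each library in turn and 56 held under every alternative; no called direction reversed. Without the low-count filter, the calls lost were ITGA5 and LAMB3 in CLA18:2 against LA, ITGA6 and ITGB1 in CLA18:2 against DMSO, ITGA7, ITGA10, ITGA11, ITGAX and LAMB1 in RSL3+CLA18:2 against DMSO, ITGAE and LAMB3 in the interaction with CLA18:2, ITGB2 in LA against DMSO, ITGB5 in RSL3+LA against DMSO, and LAMB3 in RSL3+CLA18:2 against RSL3+LA (adjusted p 0.0516 to 0.168). With library totals, the calls lost were ITGA5 and LAMB3 in CLA18:2 against LA, ITGA6, ITGAE, LAMB3 and LAMC1 in RSL3+CLA18:2 against RSL3+LA, ITGA10, ITGA11 and LAMA1 in RSL3+CLA18:2 against DMSO, and ITGB1 in CLA18:2 against DMSO (adjusted p 0.0527 to 0.15). With only the groups compared, the calls lost were ITGA2 in the interaction with CLA18:2, ITGA7 in RSL3+CLA18:2 against DMSO, ITGAE in RSL3+CLA18:2 against CLA18:2, and ITGB3 in CLA18:3 against DMSO (adjusted p 0.0522 to 0.0756). Under limma voom, the calls lost were ITGA2 in the interaction with CLA18:2, and ITGAX in RSL3+CLA18:2 against DMSO (adjusted p 0.053 to 0.0671). With the replicate block, the calls lost were ITGA2 in the interaction with CLA18:2, and ITGA2B in RSL3+CLA18:2 against DMSO (adjusted p 0.0546 to 0.0576). Counts of members called moved by over 1.5 times as follows, and the cause was not tested. RSL3 against DMSO went to 1 under DESeq2 and to 1 without a low-count filter (0 in the main result). RSL3+LA against DMSO went to 10 under DESeq2 (6 in the main result). RSL3+LA against LA went to 1 without the filter (0). RSL3+CLA18:2 against RSL3+LA went to 6 with library totals (10). The interaction with LA went to 2 without the filter and 6 under DESeq2 (0). Leaving out each library gave 5 to 8 called members for CLA18:2 against LA (8), with 5 without LA replicate 4 and without CLA18:2 replicate 1, and 3 to 7 for the interaction with CLA18:2 (6), with 3 without RSL3 replicate 4, CLA18:2 replicate 1, RSL3+CLA18:2 replicates 1, 2 and 3 or DMSO replicates 1, 2 and 3; the ranges against DMSO were 6 to 7 for LA, 14 to 16 for CLA18:2, 10 to 12 for CLA18:3, 5 to 7 for RSL3+LA and 10 to 13 for RSL3+CLA18:2. Other scalings moved the median of all genes by at most 0.07 (log2). Replicate numbers were not used as pairs: over 9049 genes, 28 of 84 same-number correlations were over 0.1, with a range of -0.41 to 0.40, and 8 of 28 libraries correlated best with their own number. With the replicate block, the called members against DMSO were 0 for RSL3, 8 for LA, 16 for CLA18:2, 11 for CLA18:3, 8 for RSL3+LA and 15 for RSL3+CLA18:2; they were 0 for RSL3+LA against LA, 5 for RSL3+CLA18:2 against CLA18:2, 8 for CLA18:2 against LA, 10 for RSL3+CLA18:2 against RSL3+LA, and 0 and 6 for the interactions with LA and CLA18:2 under the same block. ITGA7, ITGAX and LAMA3, with 7 to 89 reads a library, had wide intervals: their SE against DMSO with CLA18:2 was 0.33, 0.46 and 0.31 on the log2 scale, against 0.09 for ITGA2.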
